A study of Mus musculus with 24 samples.

Results

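Acute kidney injury by cisplatin was studied here through m6A peaks that were listed in every injured kidney and in no control kidney. Any peaks sharing 1 bp or more, from whichever of the 12 kidneys, were merged, which gave 16801 loci, and 217 of them held a peak in 4 of 4 kidneys of the injury group (IG) and in 0 of 4 control kidneys. They are called gained loci below, and they lie in exons of 201 protein-coding genes, except for 8 loci outside annotated coding-gene exons. Kidneys came from male C57BL/6 mice aged 8 weeks. Control mice received saline and then vehicle, IG mice received saline and then cisplatin at 20 mg/kg, and mice of the treatment group (TG) received daily berberine (20 mg/kg over 14 days) and then the same dose of cisplatin. All kidneys were collected 72 h after cisplatin or vehicle, with 4 mice per group. Each list was made from a whole kidney, so a change in the number of cells of a type and a change in RNA per cell cannot be told apart. Transcript levels were not analysed here, so whether a gained peak went with more transcript or with more methylation per transcript was not tested.

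N6-methyladenosine (m6A) is a reversible methylation of adenosine in mRNA. It is written by a METTL3-METTL14 complex within a short GAC-centred sequence, removed by FTO and ALKBH5 and read by YTH-domain proteins, and it bears on the splicing, stability and translation of the transcript. In the kidney, cisplatin is taken up mainly by tubular epithelial cells, which respond with cell death, dedifferentiation and repair. In MeRIP-seq, an antibody enriches methylated RNA fragments, and stretches with an excess of reads over background are called as peaks. The score of a peak is 10 times the −log10 of its p-value, and it rises with read depth as well as with enrichment. Controls listed 8531 to 9579 peaks, IG kidneys 6745 to 8357 and TG kidneys 5901 to 6753, so that every IG list was shorter than every control list. Of the 16061 loci with a peak in a control or IG kidney, 1.35% were gained and 2.73% (438 loci) were lost, which means 4 of 4 control and 0 of 4 IG kidneys. These counts follow from the rule and were not tested.

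The following sequences place the best-known injury genes and the contrasting TG states next to the motif that the m6A writer prefers. Each line gives 25 bases of coding sequence, 5′ to 3′ on the strand of the gene (minus for Atf3, Lrp6 and Mtss1, plus for the others, in GRCm38, the mm10 assembly), inside the highest IG peak of the locus, with 1 of the 4 searched motifs in capitals. The motifs were GGACT and its variants GGACA and GGACC, and also AGACT. They show where the motif lies and do not show that its adenosine was methylated.
Havcr1: acacacacatGGACTcacaaaccag
Sox9: tccgcgacgtGGACAtcggtgaact
Serpina3n: accagccaaaGGACCaggtacagat
Atf3: cagaatggacGGACAccggaagacg
Lrp6: cagctgcggtGGACTttgtgtttgg
Mtss1: accaggaaagGGACCccccaagtgc
Inhba: tcagcttcaaGGACAttggctggaa
Itih5: gtgtctataaGGACTacctggcatc
The Havcr1 window is chr11:46756263-46756287 in exon 3, the Sox9 window chr11:112784795-112784819 in exon 3 and the Serpina3n window chr12:104409044-104409068 in exon 2. The Atf3 window is chr1:191171532-191171556 in exon 4, the Lrp6 window chr6:134541919-134541943 in exon 2 and the Mtss1 window chr15:58943584-58943608 in exon 15. The Inhba window is chr13:16026831-16026855 in exon 5 and the Itih5 window chr2:10251474-10251498 in exon 14. Havcr1, Sox9, Serpina3n and Atf3 are injury or stress genes. The gained loci of Lrp6 and Mtss1 had no peak in TG, that of Inhba had higher scores in TG, and Itih5 lost other peaks as it gained this one.

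Markers of tubular injury and repair held 4 of the 9 gained list genes. Of 26 such genes, 10 had a locus in any kidney and 4 of these (Havcr1, Sox9, Cd44 and Anxa1) had a gained locus, which is 40.0% of 10 genes beside 2.73% of all 7370 genes with a locus in control or IG kidneys. None of the 10 had a lost locus (5.25% of all genes), but only Krt8, Vcam1 and Clu, listed in 4 control kidneys, could have had one. The lists were chosen with results of these data known, and the share was not tested. The other 6 genes with a locus were Krt8, Krt19, Vcam1, Clu, Hbegf and Cd14. All 6 had control peaks. Krt8, Vcam1 and Clu were listed in 4 control kidneys and in 2, 3 and 4 IG kidneys, Krt19 and Hbegf in 3 control kidneys and in 0 and 2 IG kidneys, and Cd14 in 1 control and 0 IG kidneys.

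Havcr1 encodes kidney injury molecule 1, a membrane glycoprotein that appears on injured proximal tubule cells. Its gained locus (chr11:46756129-46756287, the whole of exon 3) scored 19.6, 142, 3144 and 78.4 in IG kidneys 1 to 4 and 292, 651 and 319 in TG kidneys 1 to 3, while TG kidney 4 had no peak. The mean IG score of 846 therefore rested on IG kidney 3, and the mean of the other 3 was 80.1. Of the 32-base words of this locus, 40.6% occur more than once in the genome. No Havcr1 locus had a control peak.

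Sox9, a transcription factor of epithelial progenitors and repairing tubules, had its gained locus in the last exon, centred in the 3′ UTR (chr11:112784672-112787070). It scored 93.1, 202, 362 and 433 in the IG kidneys, and TG kidneys 1 to 4 gave 485, 124, 112 and 108. The TG scores lay within the IG range except for TG kidney 1, which was above it. A second Sox9 locus in the coding sequence held peaks in 3 of 4 IG kidneys, 2 of 4 TG kidneys and no control kidney.

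Cd44, the hyaluronan receptor, and Anxa1, which encodes a phospholipid-binding protein that restrains inflammation, differed from Sox9 in TG. The Cd44 locus in exon 5 (chr2:102852827-102853236) scored 25.4, 63.0, 76.0 and 14.9 in IG and held a peak in TG kidney 4 alone, at 25.7. The Anxa1 locus in exon 1 (chr19:20390612-20390944) scored 30.6, 137, 35.1 and 63.1 in IG and held a peak in TG kidney 1 alone, at 48.1. Cd44 had a further locus in the 3′ UTR with peaks in 1 control kidney, 3 IG kidneys and 4 TG kidneys. Its other 2 loci held a peak in 1 IG kidney each and in no control or TG kidney.

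Among acute-phase, complement and coagulation genes, 1 of 13 genes with a locus was gained (7.69%, beside 2.73% of all genes). This was Serpina3n, a serine protease inhibitor of the acute-phase response, at the whole of exon 2 (chr12:104408654-104409307). It scored 1855, 1322, 449 and 981 in IG, with 504, 286, 1079 and 1610.1 in TG, so that the groups overlapped. Of its 32-base words, 32.6% occur more than once in the genome.

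Among immediate early and stress transcription factors, 1 of 28 genes with a locus was gained (3.57%, near the 2.73% of all genes) and 3 (Ier2, Trib1 and Zfp36) were lost (10.7%, beside 5.25% of all genes). The gained gene was Atf3, a stress-induced member of the ATF/CREB family, over its last exon (chr1:191170296-191171679). Atf3 scored 693, 808, 333 and 896 in IG and 155, 184, 146 and 297 in TG, and every TG score was below every IG score. Most other genes of this list already had peaks in control kidneys, Jun, Klf4 and Klf5 among them in 4 of 4.

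The remaining list genes with a gained locus came from 3 lists with 1 such gene each, where the shares of 8.33 to 11.1% stand beside 2.73% of all genes and rest on a single gene. Atp6v1b1, a V-ATPase subunit of intercalated cells, was 1 of 12 distal nephron genes with a locus. It scored 483, 1048, 1999 and 478 in IG and 1058, 485, 420.1 and 52.6 in TG, in the last exon (chr6:83758330-83758810). Mcm3, a subunit of the replicative MCM helicase and 1 of 9 cell cycle genes with a locus, scored only 22.1, 40.8, 38.9 and 30.8 in IG and 47.5, 56.9 and 34.0 in TG kidneys 1, 2 and 4. Of 12 cytoskeletal genes with a locus, 3 (Iqgap1, Lmna and Myh9) had a lost locus (25%, beside 5.25% of all genes) and 1 a gained locus. This was Tubb6, a beta-tubulin, which scored 148, 105, 16.6 and 16.1 in IG and 51.1 and 91.0 in TG kidneys 1 and 4.

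No gained locus fell in 15 lists, and lists of their size would often hold none at the 2.73% of all genes. They comprise p53 targets (15 genes with a locus), interferon response (19), extracellular matrix and integrins (16), m6A writers, erasers and readers (14), apoptosis and necroptosis (14), splicing and RNA binding (14), cytokine, TNF and NF-kB signalling (12), the unfolded protein response (11), heat shock (7), the NRF2 pathway (7), and the markers of proximal tubule (4), podocytes (6), endothelium (6), immune cells (7) and fibroblasts (5). Among these 15 lists, lost loci were found in 2 of 14 m6A genes (Alkbh5, an eraser, and Ythdf1, a reader), 2 of 14 splicing genes (Prpf38b and Rbm39) and 1 gene each of the p53 (Plk2), NRF2 (Abcc1), matrix (Tgfb1) and endothelial (Plvap) lists, beside 5.25% of all genes. Over all lists, 9 of 241 genes with a locus had a gained locus (3.73%) and 14 had a lost locus (5.81%), beside 2.73% and 5.25% of all genes. With IG kidney 2 left out of the rule, the count of 9 became 15, among 280 gained loci.

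**Figure D1:**
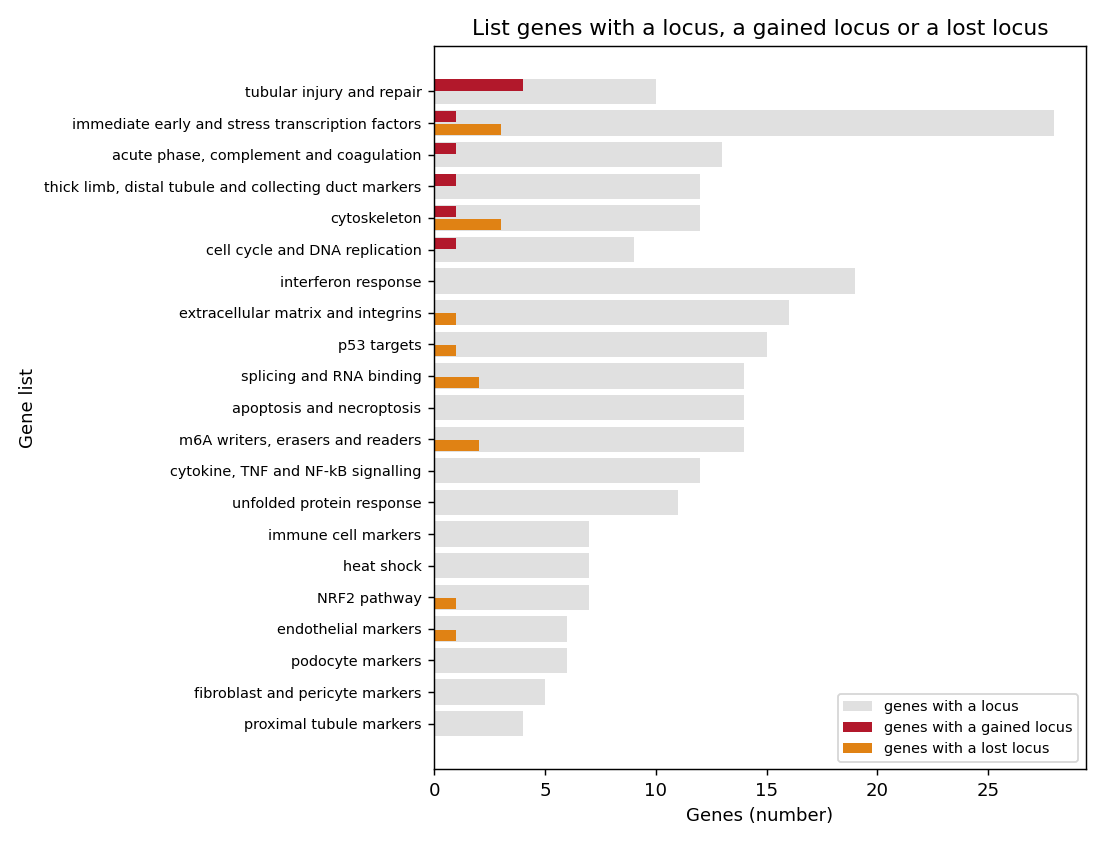
Number of genes (x axis) in each gene list (y axis) with a locus in any kidney (grey), with a gained locus (red) and with a lost locus (orange). Tubular injury and repair has 4 gained genes of 10, no other list has more than 1, and 15 lists have none.

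Markers of kidney cell types differed in how many had a locus, from 6 of 7 for podocytes, 6 of 11 for endothelium, 5 of 9 for fibroblasts and pericytes and 12 of 24 for the distal nephron to 7 of 28 for immune cells and 4 of 24 for the proximal tubule. Of 24 proximal tubule markers, 4 had a locus, with 1 to 2 genes listed per control kidney, 2 to 4 per IG kidney and 1 to 2 per TG kidney, while defining markers such as Lrp2, Cubn and Slc34a1 had none. Of the thick limb, distal tubule and collecting duct markers, 5 to 8 genes were listed per control kidney, 6 to 10 per IG kidney and 5 to 8 per TG kidney. Immune cell markers numbered 2 to 4, 1 to 5 and 2 to 4 genes, and Adgre1 and Cd68 had none. The part of cell composition in the gained loci was not tested.

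Gained loci covered a wide range of scores. Over the 217 loci, the mean IG score had a median of 78.4, quartiles of 47.1 and 142.8 and a range from 18.1 to 2595, beside a median of 70.7 for all IG peaks. Mettl26, whose name marks it as methyltransferase-like, led with 1992, 3100, 2364 and 2924 in IG and 984, 383, 723 and 634 in TG at exons 5 and 6 (chr17:25876661-25877169). The groups did not overlap, and the nearest control peak was 70322 bp away. Ptma, which encodes the nuclear protein prothymosin alpha, scored 1371, 1263, 3100 and 2018 in IG and 656, 381 and 1587 in TG kidneys 1, 3 and 4. A score of exactly 3100 recurred at other genes, in 4 of 4 IG kidneys at an Akap12 locus among them. It may be a set value and not a measured score, so means that include it are uncertain. Of the 32-base words of the Ptma locus, 96.9% occur more than once in the genome, with a median of 4 copies, so its reads may belong to other copies.

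Scaf4, an RNA polymerase II-associated regulator of polyadenylation, and Anp32a, an acidic nuclear phosphoprotein, were gained at their last exons although their genes had control peaks elsewhere. Scaf4 scored 627, 1621, 548 and 983 in IG and 643, 389, 369 and 1620.4 in TG. Anp32a scored 410, 746, 456 and 1999 in IG and 288, 174, 149 and 576 in TG. In both genes the ranges of IG and TG overlapped. Ivl, which encodes the cornified envelope protein involucrin, scored 1181, 491, 659 and 832 in IG and 504, 610, 556 and 878 in TG, again with overlap, and had no control peak in the gene.

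Dag1 and Eif3j2 completed the 12 highest-scoring loci together with BC061237. Dag1, the dystroglycan gene, was gained at exon 2 (chr9:108253009-108253157) with 81.2, 908, 777 and 297 in IG and 703, 1036, 1134 and 1376 in TG, while another Dag1 locus was listed in 4 of 4 control kidneys. Eif3j2, a translation initiation factor gene, scored 103, 36.6, 2206 and 141 in IG and 825 in TG kidney 1 alone. The mean of 622 of Eif3j2 rested on IG kidney 3, and the mean of the other 3 was 93.4. The Eif3j2 sequence is 85.4% multicopy by the same measure.

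**Figure D2:**
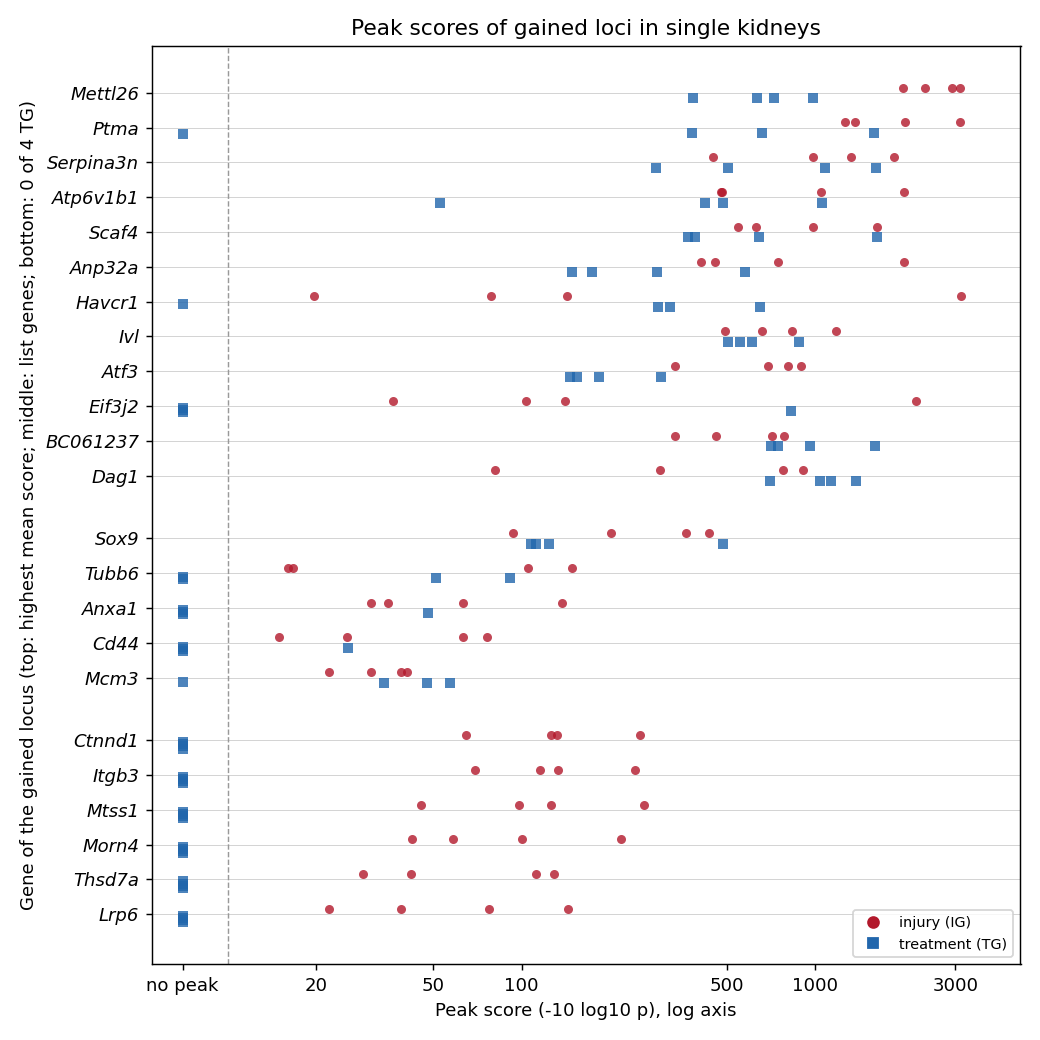
Peak score (10 times −log10 p, log axis) of single kidneys at 23 gained loci, 1 row per gene, for IG (red circles) and TG (blue squares), with kidneys lacking a peak drawn at the left of the dashed line. Atf3 and Mettl26 scores are lower in every TG kidney than in any IG kidney, Havcr1 and Eif3j2 each have 1 high IG kidney, and the 6 loci at the bottom have no TG peak.

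TG kidneys did not enter the rule of choice, although their peaks were among those merged into loci. Of the 217 gained loci, 84 held a peak in 4 of 4 TG kidneys, 51 in 3, 34 in 2, 29 in 1 and 19 in 0. The share of gained loci with a peak was 67.3, 67.7, 65.4 and 69.6% in TG kidneys 1 to 4 (67.5% ± 1.70, SD, n = 4). Absence from all TG kidneys was found for 8.76% of gained loci, beside 1.53% of all 3915 loci with a peak in 4 of 4 IG kidneys and 6.78% of the 118 such loci with a peak in 1 control kidney. TG lists were the shortest on average, and at equal list lengths 10 of 226 gained loci (4.42%) were absent, beside 0.905% of all 3204 loci with a peak in 4 of 4 IG kidneys and 3 of 144 (2.08%) with 1 control kidney. With 1 IG kidney left out of the rule, 42, 34, 34 and 38 loci were absent (12.1 to 14.3%), and 29 were absent without TG kidney 2. Over the 13357 loci with a peak in an IG or TG kidney, 0.449% (60 loci) went from 4 of 4 IG to 0 of 4 TG kidneys and 0.225% (30 loci) the other way. Of the 3698 loci with a peak in 4 of 4 IG kidneys and in at least 1 control kidney, 1.11% were absent and 72.9% were listed in all TG kidneys, and the share per TG kidney was 89.0% ± 1.74 (SD, n = 4).

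Among loci with a control peak, the TG share was lower where fewer control kidneys had one, and the share of gained loci was close to that of loci with 1 control kidney. Loci with a peak in 4 of 4 IG kidneys and 1 control kidney (118 loci) were listed in 64.2% ± 4.5 per TG kidney, those with 2 or 3 control kidneys (540 loci) in 74.6% ± 3.38 and those with 4 control kidneys (3040 loci) in 92.6% ± 1.42 (SD, n = 4 TG kidneys). The TG share also rose with the score. Gained loci with a mean IG score up to 56.9, up to 122 and above were listed in 54.1, 70.1 and 78.5% per TG kidney, and other loci within the same limits in 69.6, 85.1 and 94.6%. Lost loci were listed in 16.0% per TG kidney, and 62.1% of them were absent from all 4. These shares are descriptions, since loci are not replicates of a condition.

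**Figure D3:**
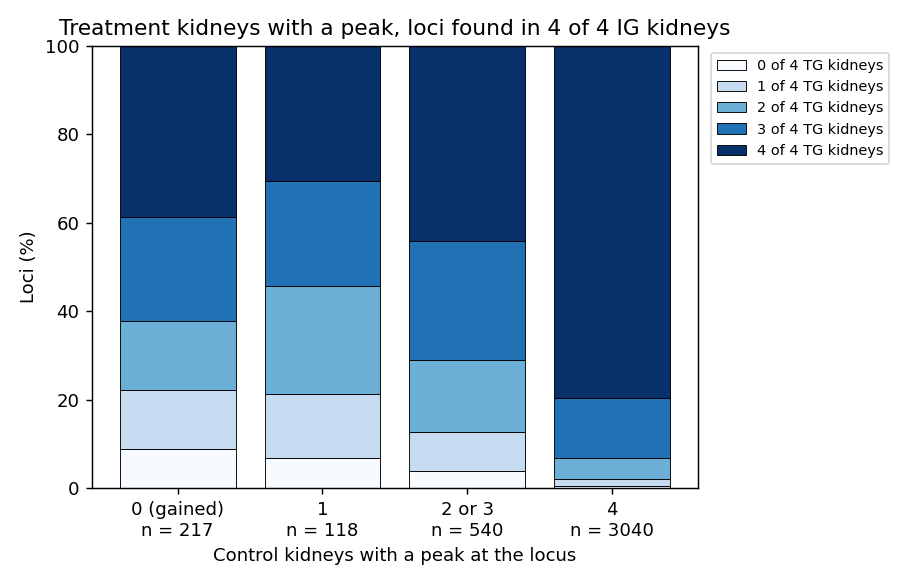
Share of loci (y axis, percent) by the number of TG kidneys with a peak (shades), for loci found in 4 of 4 IG kidneys and grouped by the number of control kidneys with a peak (x axis). The bars of gained loci (38.7% in 4 of 4 TG kidneys) and of loci with 1 control kidney (30.5%) resemble each other, and the bar of loci with 4 control kidneys reaches 79.6%.

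The 19 gained loci absent from TG were mostly low in score. Their mean IG score had a median of 47.1 and a range of 24.3 to 144, and 15 of 19 were under the median of 78.4 of all gained loci. The 6 highest follow. Ctnnd1, encoding the cadherin-binding p120 catenin, scored 131, 64.7, 253 and 126 at its first exon (chr2:84650321-84650745). Itgb3, the integrin beta-3 subunit, scored 115, 133, 244 and 69.5 at exon 5 (chr11:104637052-104637214). Neither gene had a control peak anywhere. Mtss1, an actin-binding protein that senses membrane curvature, scored 45.4, 262, 125 and 97.7 in its last exon (chr15:58943165-58944130).

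Morn4, a MORN-repeat protein gene, scored 218, 58.6, 99.9 and 42.5 near its start codon (chr19:42078484-42079133). Thsd7a, which encodes a podocyte membrane protein, scored 129, 41.9, 28.8 and 111.6 in its 3′ UTR (chr6:12313933-12314829). Lrp6, the Wnt co-receptor, scored 22.1, 77.7, 144 and 39.0 at exon 2 (chr6:134541652-134542045). The highest score of these 3 loci, 218, was under every IG score of Mettl26, Ptma, Serpina3n and Atf3. Lrp6 and Thsd7a had peaks elsewhere in 4 of 4 control kidneys. The other 13 absent loci comprise Gm21704, Jaml, Gm10271, Usp28, Esco1, Id4, Fam19a5, Iqcd, Cox19, 2700049A03Rik, Gm21693 and Fyb2, named here because they complete the group, and 1 locus outside coding-gene exons.

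At the 84 gained loci with a peak in all TG kidneys, scores usually overlapped between IG and TG. Every TG score was below every IG score at 4 loci (4.76%), beside 5.27% of the 2694 other loci listed in all IG and TG kidneys. These were Mettl26, Atf3, Entpd1, which hydrolyses extracellular ATP, and Creb5, a CREB family transcription factor. Entpd1 scored 594, 238, 298 and 547 in IG and 63.2, 27.4, 48.7 and 46.6 in TG. Creb5 scored 416, 440, 188 and 209.7 in IG and 116, 178, 89.4 and 115 in TG. Every TG score was above every IG score at 4 loci (4.76%, beside 2.15% of the others), in Inhba, Map1a, Nefm and Myh11. Inhba, the activin A subunit, scored 69.2, 92.8, 62.4 and 53.7 in IG and 167, 268, 105 and 187 in TG. The non-overlapping genes other than Mettl26 and Atf3 are named after their values were seen, and IG scores at these loci were part of the choice of loci.

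To compare IG and TG in kidneys that the rule of choice had not used, loci were chosen from 3 IG kidneys and 0 of 4 control kidneys. The kidney left out was then examined, although the loci had been merged from peaks of all 12 kidneys. The 4 choices gave 293, 280, 281 and 292 loci, of which 74.1, 77.5, 77.2 and 74.3% held a peak in IG kidneys 1, 2, 3 and 4 when left out (75.8% ± 1.84, SD, n = 4). The same loci held a peak in 60.5, 60.5, 58.4 and 63.2% in TG kidneys 1 to 4 (60.6% ± 1.98, SD, n = 4). The held-out IG share was higher by 15.1 percentage points, in 4 of 4 IG kidneys, with p = 0.0143 in a two-sided exact permutation test over 70 arrangements, which is the smallest p it allows. In each arrangement of the IG and TG labels the loci were chosen anew from the kidneys then called IG, so that swapping the labels gives a different value and not its mirror image. TG lists were shorter than most IG lists. With all lists cut to the 5901 highest-scoring peaks, the shares were 74.0% ± 2.77 and 69.6% ± 2.5 and the difference fell to 4.40 points (exact permutation p = 0.129). With the replicate number as a block the difference of 15.1 points had an exact p of 0.0625, the smallest that 16 arrangements allow. For control kidneys, loci absent from the other 3 and present in 4 of 4 IG kidneys held a peak in 9.96, 11.1, 12.9 and 13.9% in the control kidney left out (11.9% ± 1.76, SD, n = 4).

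**Figure D4:**
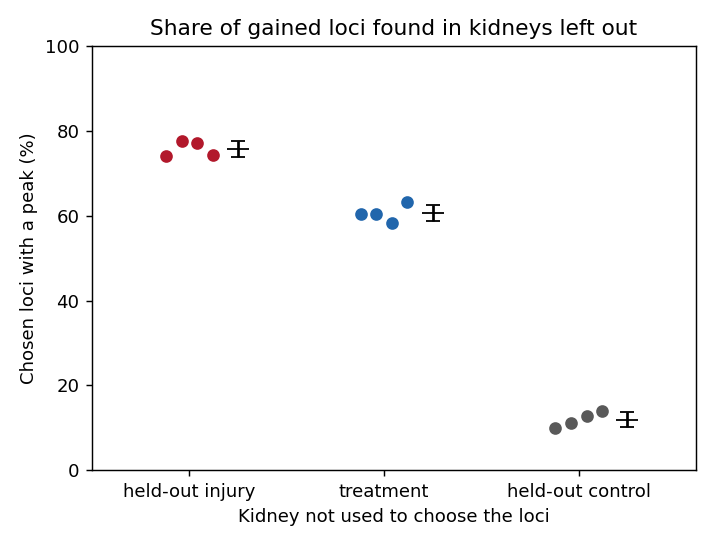
Share of chosen loci with a peak (y axis, percent) in kidneys that did not enter the choice beyond the merging of peaks, 1 point per kidney, with mean ± SD to the right of each group (n = 4). Held-out IG kidneys lie at 74.1 to 77.5%, TG kidneys at 58.4 to 63.2% and held-out control kidneys at 9.96 to 13.9%.

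Most gained loci were the entry of a gene into the lists. No control kidney had a peak anywhere in the gene for 130 loci (59.9%) in 127 genes, while 37 loci lay in genes with peaks in 1 to 3 control kidneys and 42 (19.4%) in genes with peaks in 4 control kidneys. For comparison, 51.4% of lost loci lay in genes with no IG peak. The TG share was 71.7% for gained loci of the first kind, 61.5% for the second and 60.7% for the third.

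Where a gene of a gained locus had other loci with peaks in all 8 control and IG kidneys (46 loci in 31 genes), their rank in the lists moved in both directions. The score percentile shifted by a median of −0.79 points from control to IG, with quartiles of −5.50 and 6.73 points, and it was higher in IG at 43.5% of them, beside −1.79 points and 41% for all 3040 such loci. A percentile is a rank within the list of a kidney, and IG lists were shorter than control lists, which bears on both medians. Of the 201 genes with a gained locus, 6 (2.99%) also had a lost locus, beside 5.25% of all genes. A lost locus needs a peak in 4 control kidneys, and 127 of the 201 genes had no control peak anywhere. Only the 42 genes with peaks in 4 control kidneys could have a lost locus. The choice of gained loci thus lowers this share, and it cannot be compared with that of all genes. Mtss1, Serbp1, which encodes an mRNA-binding protein, Cars, the cysteinyl-tRNA synthetase gene, Snx29, a sorting nexin gene, and Zbtb16, a zinc-finger repressor gene, had 1 lost locus each and Itih5, a hyaluronan-binding protein gene, had 2. All 7 lost loci were absent from TG.

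In Itih5, control scores at the lost locus from chr2:10186955 were 32.3, 147, 13.1 and 75.6, whereas the gained locus near its stop codon (chr2:10251252-10252182) scored 44.7, 60.0, 21.6 and 108 in IG and 42.4, 13.7, 75.9 and 93.7 in TG. In Serbp1, the lost locus near the start codon scored 410, 307, 689 and 545 in control kidneys, and the gained locus in the 3′ UTR scored 45.1, 257, 307 and 259 in IG and 74.2 in TG kidney 3 alone. Other Serbp1 loci in the coding sequence were listed in all 12 kidneys.

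Several gained loci in a gene were uncommon. BC061237 had 4, and Gm10717, Golm1, Insyn1, Myh11 and Plekhh1 had 2 each. Insyn1, a gene of inhibitory synapses, scored 393, 466, 103 and 209.9 in IG and 135, 236, 114 and 94.5 in TG at exon 2, and 101, 113, 69.7 and 92.3 in IG and 78.1, 48.9, 29.9 and 60.0 in TG at exon 3. Plekhh1, a pleckstrin-homology protein gene, scored 88.5, 149, 57.9 and 58.4 in IG and 144, 40.9, 53.1 and 39.5 in TG at exon 5, and its exon 3 locus was likewise listed in 4 TG kidneys. Golm1, a Golgi membrane protein gene, had an exon 9 locus listed in 4 TG kidneys and an exon 8 locus listed in TG kidneys 1 and 2 alone. Myh11, the smooth muscle myosin heavy chain, scored 34.3, 44.4, 13.7 and 20.4 in IG and 63.2, 56.5, 73.5 and 73.3 in TG at exon 29. At exon 39, Myh11 scored 20.8, 29.3, 61.8 and 14.8 in IG and 53.1, 26.5 and 79.7 in TG kidneys 2 to 4, with overlap and with no peak in TG kidney 1.

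Some gained loci lay in sequence that occurs more than once in the genome. In 24 of the 217 gained loci over 50% of 32-base words were multicopy, beside 10 of the 438 lost loci, and the share over all loci was not computed. Of the 24, 16 lay in 3 clusters and 8 elsewhere, Ptma and Eif3j2 among the latter. The clusters held 6 loci near chr9:3004527-3035151 (Gm10717, Gm10719, Gm10721, Gm11168 and Gm17535), 6 of 7 loci at chr14:41488305-44504291 (BC061237, Gm3486, Gm3543 and Gm8229) and 4 loci on the Y chromosome. On the Y chromosome 4 of 25 loci were gained (16.0%), and on other chromosomes 0.631 to 2.51%. The share per TG kidney was 56.3% ± 7.22 for multicopy loci and 68.9% ± 1.98 for the remaining 193 loci (SD, n = 4). Values of the clustered genes are uncertain, since the same reads can fit several of them, and loci of 1 cluster are not independent.

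BC061237 scored 460, 711, 332 and 779.9 in IG and 707, 961, 745 and 1599 in TG at exon 4 (chr14:44504107-44504291), where 27.9% of 32-base words were multicopy. At exon 2, BC061237 scored 536, 499, 323 and 687 in IG and 610.1, 874, 993 and 1280 in TG. In the exon 2 locus 86.5% of words were multicopy. No BC061237 locus had a control peak, and 2 of the 4 were listed in all TG kidneys.

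Along the transcript, gained loci lay more often toward the 3′ end than loci in general. Of 193 gained loci placed along a representative transcript, the one whose coding sequence (CDS) was longest, 88 (45.6%) were in the CDS, 45 (23.3%) in the 3′ UTR, 32 (16.6%) within 200 nt of the stop codon, 26 (13.5%) within 200 nt of the start codon and 2 in the 5′ UTR. For all loci in control or IG kidneys the shares were 58.6, 12.6, 13.4, 14 and 1.37%. Lost loci had 57.8% in the CDS and 14.1% in the 3′ UTR. A further 16 gained loci lay on other transcripts of their gene. Gained loci touched the last exon in 45.5% of cases, beside 27.8% of all loci, and covered a whole exon in 52.1%, beside 65.7%.

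Gained loci were also longer, with a median of 711 bp and a range of 18 to 6218 bp, beside a median of 293 bp for all loci and 453 bp for loci found in all 8 kidneys. No control peak lay within 100 bp of a gained locus and 12 had one within 1000 bp. Length depends on how many kidneys contribute a peak, so the comparison with all loci is affected by the rule.

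**Figure D5:**
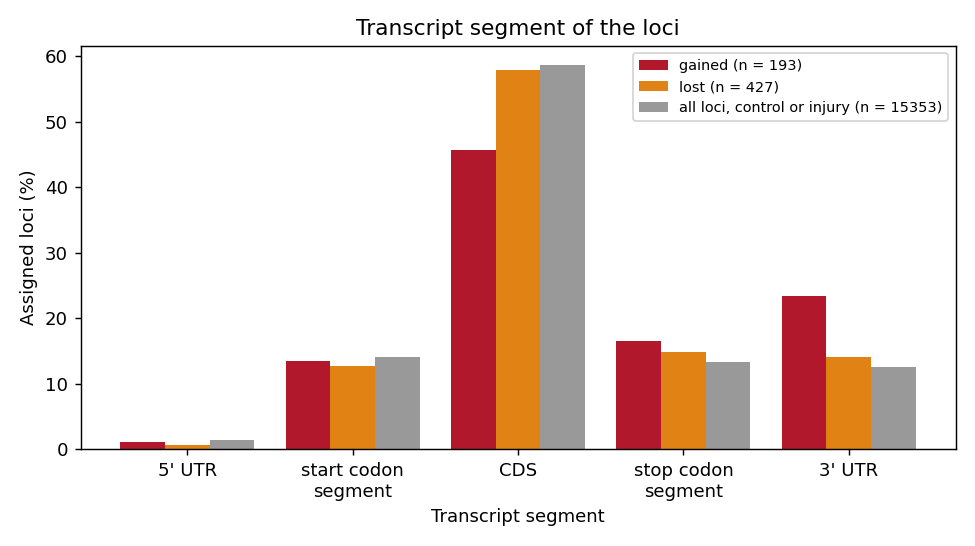
Share of loci assigned to a transcript segment (y axis, percent) for gained, lost and all control or IG loci. Gained loci have the tallest 3′ UTR bar (23.3%) and the shortest CDS bar (45.6%).

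Motifs were counted on the gene strand from 50 bases before to 50 bases after a midpoint. For gained loci this was the midpoint of the highest IG peak. All loci include some without an IG peak, so their windows are not placed strictly alike. GGACT occurred in 14.3% of gained loci and in 5.07% on the opposite strand, beside 10.6% and 8.79% for all loci. GGACA occurred in 13.8%, GGACC in 8.76% and AGACT in 12% of gained loci, beside 14.2, 10.9 and 12.3% of all loci. At least 1 of the 4 occurred in 38.2% of gained loci and 40.1% of all loci. Over whole loci GGACT had a density of 1.12 per kb in gained and 1.14 per kb in all loci, so the higher density around the midpoint (1.60 beside 1.13 per kb) did not extend over the locus. A coding-sequence copy of 1 of the 4 motifs lay in the highest IG peak of 108 gained loci, and in 53 of them it was GGACT.

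At the threshold of the rule, the 3 lowest-scoring gained loci were in D630023F18Rik, Pde3b, a cyclic nucleotide phosphodiesterase gene, and Appl1, an endosomal adaptor gene, with mean IG scores of 22.9, 22.1 and 18.1. Just outside, 278 loci held a peak in 3 IG and 0 control kidneys, with a median score of 42.0, and were listed in 1.56 TG kidneys on average. Their leading locus was in Hnrnpk, an RNA-binding protein gene, with 2409, 1995 and 2524 in IG kidneys 1 to 3 and 2230.3, 1526, 2544 and 2569 in TG. Next came Slc35b2, a sulphate-donor transporter gene, and Egf, the epidermal growth factor gene of the distal tubule, with 1025, 118 and 528 in IG kidneys 1, 3 and 4. A further 118 loci held a peak in 4 IG kidneys and 1 control kidney, led by Ap3d1, an adaptor protein subunit gene, with 1642 in control kidney 2, Hsd11b1, which regenerates active glucocorticoid, and Slc7a13, a cystine transporter gene of the proximal tubule.

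A few further gained loci were picked after their values were seen, and no theme was tested or is meant. Foxa1, a pioneer transcription factor, scored 195, 316, 192 and 294 in IG and 188, 109 and 385 in TG kidneys 1, 2 and 4. Edn1, the endothelin 1 precursor, scored 19.6, 57.8, 55.4 and 18.6 in IG and 25.9, 64.1 and 90.0 in TG kidneys 1, 3 and 4. Neither gene had a control peak. Incenp, of the chromosomal passenger complex, scored 189, 204, 179 and 68.3 in IG and 107, 88.9, 221 and 154 in TG. Lig1, the replicative DNA ligase, scored 35, 21.4, 28.1 and 25.4 in IG and 28.0, 31.7 and 17.3 in TG kidneys 2, 3 and 4. Rel, an NF-kB subunit that is not on the list above, scored 114, 13.4, 19.7 and 130.1 in IG and 42.7, 173, 37.1 and 133 in TG. In these genes IG and TG overlapped where both held peaks.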

How the data were processed

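Peak lists of 12 m6A libraries (4 kidneys per group) were analysed. Groups and replicate numbers came from the sample labels. The authors trimmed reads with Cutadapt 1.9.3, aligned them with HISAT2 2.0.4 to mm10, called peaks per kidney with MACS and kept peaks over mRNA exons. The MACS version, threshold and control are not given in the sources used here. The deposited score is 10 times −log10 of the peak p-value, and the lowest was 13.02. The lists hold no counts, so depth is unknown and no intervals are given, and precision comes from the number of kidneys alone. The 12 input libraries and RNA-seq were not analysed here.

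Overlapping peaks were joined regardless of strand, and starts were converted to 1-based positions. Genes were 21866 protein-coding genes of GENCODE M21. A locus was placed by the exonic midpoint on the transcript with the longest CDS, with codon segments of 200 nt to each side. Multicopy 32-mers, motifs and sequences were read from the GRCm38.p6 RefSeq assembly. The held-out comparison used a two-sided exact permutation test over kidneys. Its simulation without a difference drew loci independently and alike in IG and TG, so it does not cover lists of unequal length. All other comparisons are descriptive. Whether the replicate numbers pair kidneys is not stated in the sources used here. The members and gene lists were chosen with earlier results of these data known, and the older symbols Cyr61 and Ctgf were read as Ccn1 and Ccn2.

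Named loci are the 12 with the highest mean IG score, the 6 highest with 0 and the 6 highest with 4 TG kidneys, those of genes with several gained loci or on a list, the 3 lowest, and the 3 highest on either side of the threshold. Alternatives were equal list lengths (5901 peaks), scores at or above the median of 71.3, joining within 100 bp, by strand or by 50% reciprocal overlap, looser rules, codon segments of 100 nt, whole-locus motif counts, the replicate block and leaving out each kidney. Leaving out multicopy loci, the block at equal list lengths and TG absence by control state at equal list lengths were alternatives chosen after seeing the data. Python 3.11.15, numpy 2.4.6, scipy 1.17.1, pandas 2.3.3 and matplotlib 3.10.9 were used.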

Additional observations from a re-analysis of the deposited data

Results flagged for a closer look

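Among 62 groups of 4 kidneys examined at the named loci, 7 had 1 kidney far from the other 3 by Dixon's criterion, which chance gives in about 1 of 20 groups of normally distributed values. The rate for peak scores, which are not so distributed, was not measured, and all 7 were the highest kidney of their group. Havcr1 in IG kidney 3 scored 3144, and Eif3j2 in the same kidney scored 2206. Sox9 in TG kidney 1 scored 485. The Gm10717 locus from chr9:3032155 scored 431 in IG kidney 2, and that from chr9:3029232 scored 427 in IG kidney 1. Plekhh1 scored 144 at exon 5 in TG kidney 1, and Pde3b scored 111 in TG kidney 4. The cause was not tested.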

How the results depend on the processing

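Membership depended on the scores. All 217 gained loci remained with joining within 100 bp or by strand and 208 with reciprocal overlap, but 125 of 217 were overlapped by the 226 gained loci at equal list lengths and 43 of 217 by the 97 at scores at or above the median. At equal list lengths 10 loci were absent from TG, the mean TG share was 75.9% and the held-out difference was 4.40 points (exact permutation p = 0.129, and 0.313 with the replicate block). At scores at or above the median there were 97 loci in 92 genes, 46 in all TG kidneys, 7 in none and 65 in genes without a control peak, with a mean TG share of 71.6%. Looser rules gave 495 loci (3 of 4 IG kidneys) and 335 (1 control kidney allowed). Without multicopy loci there were 193.

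Leaving out 1 kidney in turn gave 217 to 293 loci in 201 to 269 genes, 89 to 99 loci in all TG kidneys, 19 to 42 in none, 130 to 167 in genes without a control peak, 9 to 15 in list genes, a mean TG share of 59.8 to 68.2%, 45.6 to 48.4% in the CDS and a held-out difference of 13.3 to 16.0 points, whose exact p stayed at the smallest each arrangement allows (0.0143 or 0.0286). Loci absent from TG numbered 42, 34, 34 and 38 without IG kidneys 1 to 4 and 29 without TG kidney 2, and list-gene loci numbered 15 without IG kidney 2.

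With the replicate number as a block the held-out difference was 15.1 points (exact p = 0.0625, the smallest it allows). Deviations of same-numbered IG and TG kidneys from their group means correlated at −0.02 to 0.05, and 2 of 4 IG kidneys correlated best with their own number. These low values show no clear pairing in the scores, but they cannot tell whether same-numbered kidneys were handled together. The depth behind a peak is unknown, so absence from a list is not absence of m6A.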
